A study of Rattus norvegicus with 8 samples.

Results

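The 10 genes described here encode myostatin and other secreted ligands of the TGF-β superfamily: Mstn, Inhba, Tgfb1, Tgfb2, Tgfb3, Bmp2, Bmp4, Bmp6, Gdf6 and Gdf10. They are 10 of the 31699 genes in the expression table, each matched to 1 entry by its symbol. The set was chosen from measured values of the same comparison, in which Mstn was already known to be lower, so the differences of these genes between the groups are given as a description, with no p-value. RNA-seq was performed on rat annulus fibrosus cells (AFCs), the cells of the collagen-rich ring around the intervertebral disc. AFCs were isolated from Sprague Dawley rats, with the tissue of 8 rats pooled for each isolation. The methods give male rats aged 3 months for the animal model, without a separate statement for the cells. The study asked how the mechanically gated cation channel Piezo1 acts in stretched AFCs. All 8 samples received cyclic mechanical stretch (20% elongation, 0.5 Hz, 36 h), which the study used to induce apoptosis, so no unstretched sample enters the comparison. Before stretching, cells were infected for 24 h with lentivirus at a multiplicity of infection of 20. The 4 samples labelled Lv-Ctrl received the pLVX-shRNA-Puro vector and the 4 samples labelled Lv-Piezo1 received the same vector with a short hairpin RNA against Piezo1. A single hairpin construct was used, in cells of a primary culture and not in a clone. The labels do not say which samples share an isolation, so p-values measure the spread between these samples only.

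Ligands of this superfamily are made as precursors, cleaved by furin-like proteases and secreted as dimers that bring together type I and type II serine/threonine kinase receptors. TGF-β isoforms, activins and myostatin signal mainly through SMAD2 and SMAD3, whereas bone morphogenetic proteins (BMPs) and several growth differentiation factors signal through SMAD1, SMAD5 and SMAD8, and both branches use SMAD4. TGF-β is kept latent in the matrix until it is activated, by integrins or traction among others, and the superfamily is known for the control of collagen matrix, tendon and disc development and tissue fibrosis.

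The values are TPM (transcript abundance scaled to transcript length and to the total of the sample), so levels can be compared between genes. The number of reads behind them is unknown, and precision rests on the 4 samples of each group. Piezo1, the target of the hairpin, measured 31.1, 33.0, 26.7 and 29.5 TPM in samples 1 to 4 labelled Lv-Ctrl and 38.1, 37.7, 40.2 and 41.4 TPM in samples 1 to 4 labelled Lv-Piezo1. The study states that the effectiveness of the hairpin was verified, in a supplementary figure. In the present values, every Lv-Piezo1-labelled value lay above every Lv-Ctrl-labelled value, opposite to the label (log2 fold change 0.38, SE 0.06, limma adjusted p = 8.6e-04). The median log2 fold change of all tested genes was 0.14, and that of Piezo1 was 0.21 after median-ratio scaling of the samples. Every direction given below is therefore that of the labels and carries the limit that the Piezo1 transcript goes against them. A second difference separated the groups, in genes of the Y chromosome. The methods name male rats for the animal model, without a separate statement for the cells. Eif2s3y, a Y-linked gene, averaged 61.1 ± 1.37 TPM under the Lv-Ctrl label against 15.1 ± 0.779 TPM under the Lv-Piezo1 label (SD, n = 4 each, log2 fold change -1.95, SE 0.04, limma adjusted p = 2.7e-09). Kdm5d and Uty, also Y-linked, had log2 fold changes of -1.14 and -1.16 (SE 0.08 and 0.11, limma adjusted p = 3.1e-06 and 2.8e-05). By the methods, AFCs of 1 isolation received the different treatments and counted as 1 repeat, so that each pool of rats would have supplied both groups. The source of the Y-linked difference was not tested. The labels do not say which samples share a pool, and the part of the Y-linked difference in the ligand differences was not tested.

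The differences below are log2 fold changes of TPM + 1, Lv-Piezo1-labelled minus Lv-Ctrl-labelled, and on this scale changes of weakly expressed genes come out too small. A gene was called at a limma adjusted p below 0.05 and a log2 fold change of at least 1 in size. Of the 10 ligands, 9 had the mean of at least 1 TPM needed to be tested and Gdf10 did not. For the ligands, which were chosen on these values, the rule serves as a marker of size and not as a test. It marks 3 as higher (Tgfb3, Bmp4 and Tgfb2), beside a share of 4.91% of all 13103 tested genes. It marks 3 as lower (Mstn, Inhba and Bmp6), beside 2.76% of all tested genes, and 7.67% were called in either direction. The groups did not overlap in 7 of the 10 ligands, beside 54.2% of all tested genes. Because the ligands were chosen with these differences known, nothing is read from their counts. Tgfb2 (1.05) lay just inside the limit and Bmp2 (-0.996) just outside it. The median log2 fold change of all tested genes was 0.14, and -0.02 after median-ratio scaling of the samples. In bulk RNA a change in the share of a cell type and a change in RNA per cell cannot be told apart.

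Among the TGF-β isoforms, Tgfb3 was much higher, Tgfb2 was moderately higher and Tgfb1 was near equal in the samples labelled Lv-Piezo1. Tgfb1, the isoform most studied in fibrosis, measured 164, 169, 176 and 166 TPM in samples 1 to 4 labelled Lv-Ctrl and 172, 175, 168 and 170.1 TPM in samples 1 to 4 labelled Lv-Piezo1. The groups overlapped, and the means were 169 ± 5.05 and 171 ± 2.92 TPM (SD, n = 4 each). Its log2 fold change of 0.02 (SE 0.03) changed sign to -0.15 with median-ratio scaling and was 0.01 with quantile normalization. Tgfb2, an isoform with prominent roles in the embryo, had 14.3, 15.7, 12.5 and 14.2 TPM under the Lv-Ctrl label and 30.5, 28.7, 30.2 and 31.9 TPM under the Lv-Piezo1 label. The groups did not overlap, and the lowest value was that of Lv-Ctrl sample 3. The means of 14.2 ± 1.34 and 30.3 ± 1.35 TPM gave a log2 fold change of 1.05 (SE 0.07), which fell below the limit of 1 without Lv-Ctrl sample 3 (0.99), with quantile normalization (0.90) and with median-ratio scaling (0.88). Tgfb3, an isoform expressed in developing tendon and cartilage, had 61.5, 61.1, 58.1 and 62.2 TPM under the Lv-Ctrl label and 420.3, 415, 431 and 438 TPM under the Lv-Piezo1 label. Its samples lay close together within each group, and the groups were far apart. The means of 60.7 ± 1.80 and 426 ± 10.7 TPM differed by 7.02-fold, with a log2 fold change of 2.79 (SE 0.03) that ranged from 2.61 to 2.81 over the other settings.

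**Figure D1:**
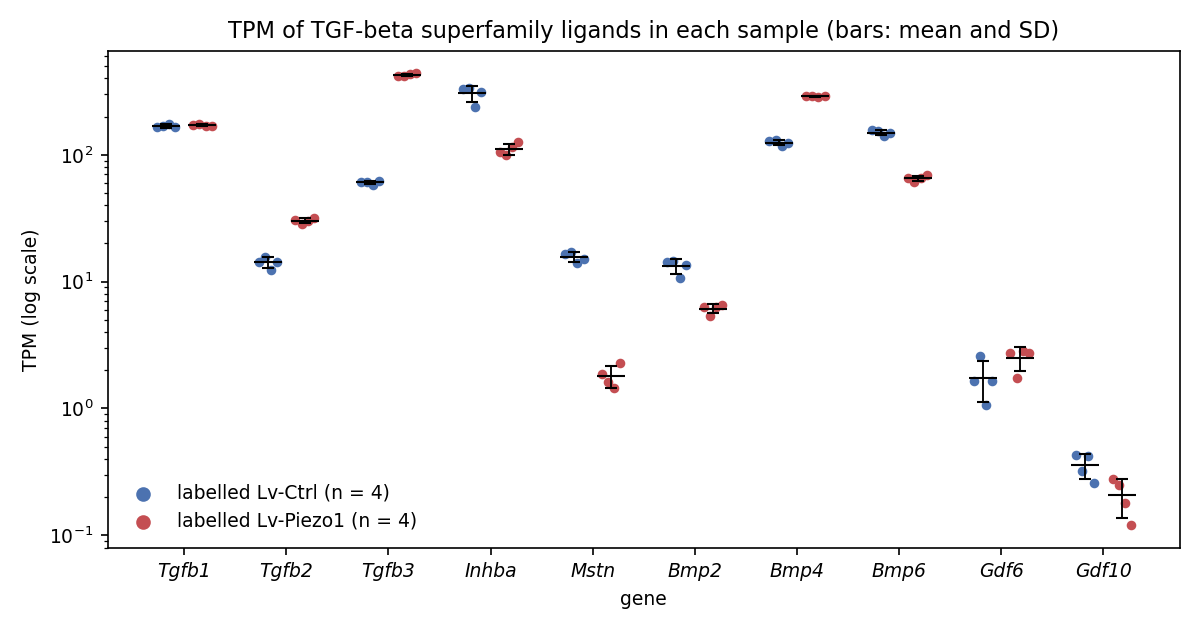
TPM on a log axis for the 10 ligand genes, with 1 point per sample (blue, labelled Lv-Ctrl; red, labelled Lv-Piezo1; n = 4 each) and black bars for the mean and SD. The point clouds are fully apart for Tgfb2, Tgfb3, Inhba, Mstn, Bmp2, Bmp4 and Bmp6 and overlap for Tgfb1, Gdf6 and Gdf10.

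The ratio between isoforms within a sample does not depend on a scaling factor common to the sample. Tgfb3 stood at 0.331 to 0.374 times Tgfb1 in the samples labelled Lv-Ctrl and at 2.37 to 2.58 times Tgfb1 in those labelled Lv-Piezo1. The 2 isoforms thus changed places in the order of levels. Tgfb3 over Tgfb2 also differed without overlap, at 3.88 to 4.67 against 13.7 to 14.5, so the isoforms that were higher were not higher in the same proportion.

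Upstream sequence was printed for the 2 isoforms that differed, since they were higher together. The 250 bases before the RefSeq start site are given in the direction of the gene (GRCr8 build). Capitals mark 4 motifs on either strand: TATAAA, the core promoter box read by general transcription factors, CAGACA, an element that SMAD proteins can bind, CACGTG, an E-box, and GGGCGG, the element known for binding of SP1.
Tgfb2, chr13:100792686-100792935, minus strand: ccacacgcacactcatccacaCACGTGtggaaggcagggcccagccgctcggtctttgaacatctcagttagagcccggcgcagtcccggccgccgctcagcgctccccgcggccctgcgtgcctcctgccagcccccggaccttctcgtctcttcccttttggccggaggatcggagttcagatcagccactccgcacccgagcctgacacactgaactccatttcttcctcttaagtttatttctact
Tgfb3, chr6:111456947-111457196, minus strand: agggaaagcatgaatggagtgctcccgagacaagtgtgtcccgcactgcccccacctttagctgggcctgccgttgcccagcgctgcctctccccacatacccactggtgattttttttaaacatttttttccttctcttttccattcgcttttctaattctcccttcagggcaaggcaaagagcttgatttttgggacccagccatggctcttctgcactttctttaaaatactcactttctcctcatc
The Tgfb2 window held a CACGTG 229 bases before the start site and none of the other 3 motifs, and the Tgfb3 window held none of the 4. The G and C content was 61.6% for Tgfb2 and 48.8% for Tgfb3, against a median of 51.2% over the windows of all 33469 RefSeq promoters.

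The ligands of the activin and myostatin branch, Mstn and Inhba, were both lower in the samples labelled Lv-Piezo1. Mstn encodes myostatin, the inhibitor of skeletal muscle growth. It measured 16.4, 17.2, 13.9 and 15.0 TPM in samples 1 to 4 labelled Lv-Ctrl and 1.86, 1.61, 1.46 and 2.29 TPM in samples 1 to 4 labelled Lv-Piezo1. The groups did not overlap, and the lowest Lv-Ctrl-labelled value was 6.08 times the highest Lv-Piezo1-labelled one. Means were 15.6 ± 1.46 and 1.81 ± 0.363 TPM (SD, n = 4 each), an 8.66-fold lower level and a log2 fold change of -2.57 (SE 0.10). Because its level was low, Mstn moved with the pseudocount more than the other tested ligands, to -3.06 with a pseudocount of 0.1. Leaving out 1 sample at a time gave -2.65 to -2.51.

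Inhba encodes the βA subunit, whose dimer is activin A and which also pairs with the α subunit to form inhibin A. Its values were 331, 337, 239 and 315 TPM for the Lv-Ctrl label and 105, 98.8, 114 and 125 TPM for the Lv-Piezo1 label. The groups did not overlap, and Lv-Ctrl sample 3 lay at 0.728 of the mean of the other 3 samples of its group. With means of 305 ± 45.5 and 111 ± 11.5 TPM, the log2 fold change was -1.45 (SE 0.12) and ranged from -1.63 to -1.40 over the other settings. The 2 genes were not lower in the same proportion, since Inhba over Mstn was 17.1 to 21.0 in the samples labelled Lv-Ctrl and 54.6 to 78.2 in those labelled Lv-Piezo1. For Inhba, the ligand with the highest level under the Lv-Ctrl label, the upstream window is given in the same form.
Inhba, chr17:53804509-53804758, minus strand: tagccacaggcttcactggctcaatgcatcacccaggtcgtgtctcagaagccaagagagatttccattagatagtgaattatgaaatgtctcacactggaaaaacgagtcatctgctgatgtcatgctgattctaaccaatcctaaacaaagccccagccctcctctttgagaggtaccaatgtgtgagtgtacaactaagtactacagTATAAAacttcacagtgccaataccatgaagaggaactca
A TATAAA began 40 bases before the start site, the only TATAAA among the 7 ligands with an entry in the promoter table, against 12.9% of all promoters. The window's G and C content was 43.6%.

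The BMP ligands moved in both directions. Bmp2, an inducer of bone and cartilage, had 14.3, 14.5, 10.8 and 13.5 TPM in samples 1 to 4 labelled Lv-Ctrl and 6.33, 5.39, 6.26 and 6.53 TPM in samples 1 to 4 labelled Lv-Piezo1. The groups did not overlap, and Lv-Ctrl sample 3 was again the lowest of its group. The log2 fold change of -0.996 (SE 0.10), from means of 13.3 ± 1.72 and 6.13 ± 0.505 TPM, lay at the limit, and it passed -1 with median-ratio scaling (-1.16), quantile normalization (-1.19), a pseudocount of 0.1 (-1.10) and without any of Lv-Ctrl sample 3 (-1.09) or Lv-Piezo1 samples 1, 3 or 4 (-1.01, -1.01 and -1.02). Bmp6, an osteogenic BMP that also controls hepcidin in the liver, had 157, 153, 141 and 149 TPM against 65.3, 61.1, 65.4 and 69.0 TPM. All 4 Lv-Piezo1-labelled samples lay below all 4 Lv-Ctrl-labelled samples, with means of 149.8 ± 6.72 and 65.2 ± 3.22 TPM and a log2 fold change of -1.19 (SE 0.05). Bmp4, a close relative of Bmp2 that acts in mesoderm and limb development, went the other way, with 128, 130.4, 116 and 125 TPM for the Lv-Ctrl label and 293, 289.9, 286 and 292 TPM for the Lv-Piezo1 label. The groups did not overlap, and the Lv-Piezo1-labelled samples spanned only 286 to 293 TPM. Means of 125 ± 6.04 and 290.3 ± 2.92 TPM gave a log2 fold change of 1.21 (SE 0.04), with a range of 1.03 to 1.23 over the other settings.

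Bmp4 and Bmp6 had similar levels in the samples labelled Lv-Ctrl, with a ratio of 0.814 to 0.854, and stood at a ratio of 4.24 to 4.74 in those labelled Lv-Piezo1. The ratio of Bmp4 to Bmp2 was 8.95 to 10.8 against 44.8 to 53.8. Upstream windows of Bmp4 and Bmp6 are shown because these genes differed in opposite directions.
Bmp4, chr15:22101934-22102183, minus strand: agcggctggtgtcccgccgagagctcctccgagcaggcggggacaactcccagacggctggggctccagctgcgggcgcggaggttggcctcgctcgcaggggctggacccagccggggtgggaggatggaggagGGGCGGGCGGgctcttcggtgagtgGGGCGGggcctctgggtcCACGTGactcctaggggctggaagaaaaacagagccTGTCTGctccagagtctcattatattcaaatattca
Bmp6, chr17:26675262-26675511, minus strand: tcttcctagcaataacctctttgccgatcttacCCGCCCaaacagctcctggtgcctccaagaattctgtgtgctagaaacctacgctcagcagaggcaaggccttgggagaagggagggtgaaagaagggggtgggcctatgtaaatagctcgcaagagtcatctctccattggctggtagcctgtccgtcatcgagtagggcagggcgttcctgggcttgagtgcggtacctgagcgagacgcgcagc
Bmp4 held GGGCGG beginning 115, 111 and 90 bases before the start site, the first 2 overlapping, a CACGTG at 72 bases and a CAGACA on the opposite strand at 36 bases. Bmp6 held a single GGGCGG, on the opposite strand at 217 bases. A match describes the letters of the window and is not a binding site.

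The remaining ligands, Gdf6 and Gdf10, were near the lower limit of the table. Gdf6, a growth differentiation factor with roles in joint and skull development, had 1.64, 2.57, 1.07 and 1.66 TPM in samples 1 to 4 labelled Lv-Ctrl and 2.75, 1.73, 2.82 and 2.76 TPM in samples 1 to 4 labelled Lv-Piezo1. The groups overlapped, because Lv-Ctrl sample 2 was high and Lv-Piezo1 sample 2 was low. Means of 1.74 ± 0.620 and 2.52 ± 0.524 TPM gave a log2 fold change of 0.38 (SE 0.18). Gdf10, also known as BMP3b, had 0.43, 0.32, 0.42 and 0.26 TPM against 0.28, 0.25, 0.18 and 0.12 TPM, with overlap of the groups at means of 0.358 ± 0.0818 and 0.208 ± 0.0718 TPM. It was not tested.

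**Figure D2:**
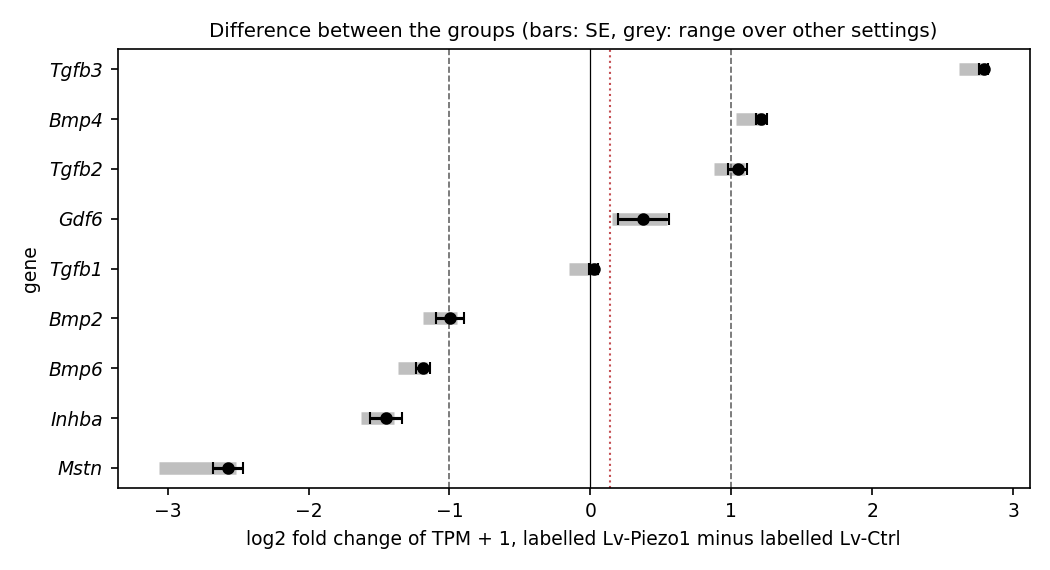
Log2 fold change of TPM + 1 (labelled Lv-Piezo1 minus labelled Lv-Ctrl) for the 9 ligands with a mean of at least 1 TPM. Black bars are the SE, grey bars the range over the other settings, dashed lines the limits at -1 and 1, and the red dotted line the median of all tested genes at 0.14. Tgfb3 (2.79) and Mstn (-2.57) stand at the ends, and Tgfb2 and Bmp2 lie at the limits.

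In the samples labelled Lv-Ctrl the order of mean levels was Inhba, Tgfb1, Bmp6, Bmp4, Tgfb3, Mstn, Tgfb2, Bmp2, Gdf6 and Gdf10. Neighbours in this order had separate sample ranges except Mstn, Tgfb2 and Bmp2, whose ranges overlapped from one to the next. Under the Lv-Piezo1 label the order was Tgfb3, Bmp4, Tgfb1, Inhba, Bmp6, Tgfb2, Bmp2, Gdf6, Mstn and Gdf10, and only the ranges of Gdf6 and Mstn overlapped among neighbours. Inhba thus went from the highest level to the fourth, Tgfb3 from the fifth to the highest, and Mstn from the sixth to the ninth.

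The summed level of the 10 ligands was 855 ± 59.7 TPM under the Lv-Ctrl label and 1105 ± 25.7 TPM under the Lv-Piezo1 label (SD, n = 4 each). Of this sum, Tgfb3 made up 7.12% ± 0.342 under the Lv-Ctrl label and 38.6% ± 0.270 under the Lv-Piezo1 label. The share of Inhba was 35.6% ± 3.04 against 10.0% ± 0.812. The 3 TGF-β isoforms together went from 28.6% ± 2.33 to 56.8% ± 0.470, and Inhba with Mstn from 37.4% ± 3.06 to 10.2% ± 0.827. The combined share of Bmp2, Bmp4 and Bmp6 was 33.7% ± 0.826 against 32.7% ± 0.470, with overlapping sample ranges of 33.0% to 34.9% and 32.3% to 33.2%. A near equal BMP share thus stood beside opposite differences of Bmp4 and Bmp6. Because the sum itself was higher under the Lv-Piezo1 label, the combined BMP level in TPM was higher there, and the differences did not cancel.

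**Figure D3:**
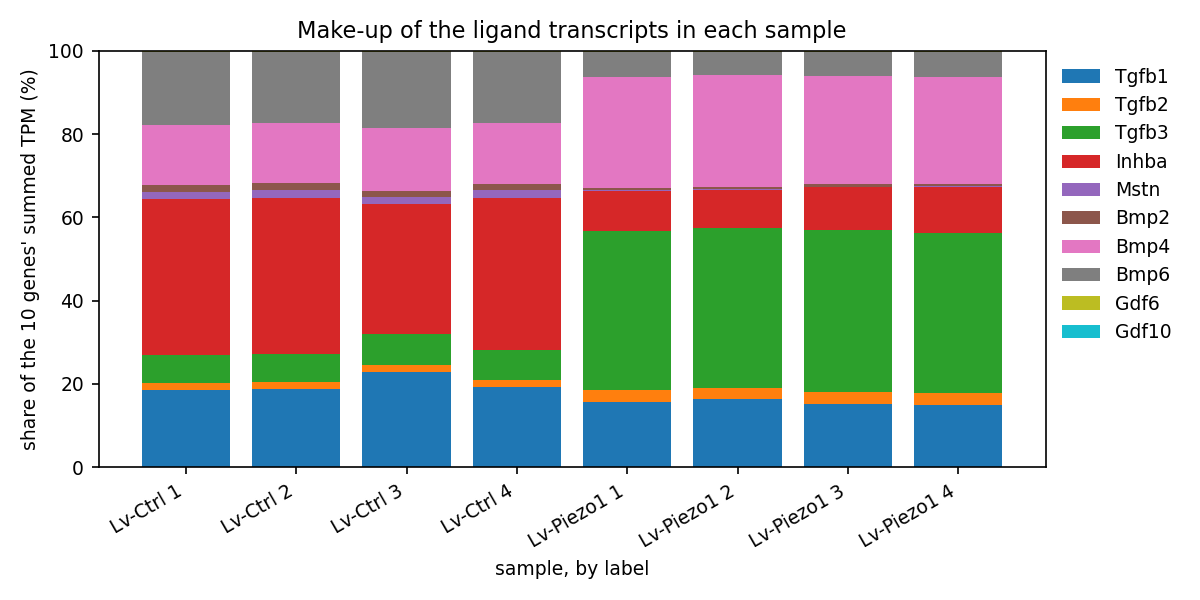
Share of each ligand in the summed TPM of the 10 genes (y axis, %) in each of the 8 samples. The green Tgfb3 segment takes 6.78% to 7.56% in the samples labelled Lv-Ctrl and 38.3% to 38.9% in those labelled Lv-Piezo1, while the red Inhba segment takes 31.1% to 37.5% and 9.18% to 11.0%.

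Samples within a group also differed. Lv-Ctrl sample 3 held the lowest value of its group for 8 of the 10 ligands and for 48.5% of all tested genes, and Lv-Piezo1 sample 4 the highest of its group for 6 ligands and for 42.7% of all tested genes. Without Lv-Ctrl sample 3, Inhba had a log2 fold change of -1.56, Bmp2 of -1.09 and Tgfb3 of 2.77. Lv-Ctrl sample 2 held the highest value of several skeletal muscle genes. The muscle creatine kinase gene Ckm was at 14.0 TPM there and at 1.19 to 2.18 TPM in the other 7 samples, and the fast myosin gene Myh4 at 4.26 against 0.40 to 0.64 TPM. The actin gene Acta1, chosen after its value was seen, also differed between the groups outside that sample. It was at 22.05 TPM in Lv-Ctrl sample 2, at 1.59 to 2.14 TPM in the other Lv-Ctrl-labelled samples and at 7.94 to 9.83 TPM under the Lv-Piezo1 label. Of 19 skeletal muscle markers in the table, 13 had a mean under 1 TPM, and the myogenic factors Myod1, Myf5, Myog and Pax7 were listed at 0 in all 8 samples. The summed level of the markers was 23.0 to 71.8 TPM under the Lv-Ctrl label and 65.9 to 70.2 TPM under the Lv-Piezo1 label, and the desmin gene Des made up 42.8 to 45.5 TPM of the latter. The troponin gene Tnnt3 had 6.93 to 13.3 TPM under the Lv-Ctrl label and 10.2 to 11.8 TPM under the Lv-Piezo1 label, with overlap (limma adjusted p = 0.17). The overlap came from Lv-Ctrl sample 2 alone, as the others of its group had 6.93 to 8.09 TPM. Without that sample the log2 fold change of Tnnt3 was 0.48, against 0.29 with all samples. Mstn in Lv-Ctrl sample 2 was 1.14 times the mean of the other 3 samples of its group, and without that sample the log2 fold change of Mstn was -2.53.

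Of the markers of the labelled cell type, the collagen I genes Col1a1 and Col1a2 were abundant and made up most of the summed level. Col1a1 had 3282 ± 137 and 5835 ± 103 TPM in the groups labelled Lv-Ctrl and Lv-Piezo1 (SD, n = 4 each), and Col1a2 had 2316 ± 141 and 3795 ± 159 TPM. The sum of the list was 5606 to 6320 TPM against 10463 to 11165 TPM. The tendon and annulus factor Scx, chosen after its value was seen, had 30.1 ± 5.05 and 56.8 ± 10.5 TPM. Of the 10 annulus and tendon markers, 9 had a mean of at least 1 TPM. The exception was Tnmd, a marker of mature tendon, which was listed at 0 in 7 of the 8 samples. Of 10 nucleus pulposus and chondrocyte markers, 7 had a mean under 1 TPM, the notochordal factor Tbxt was listed at 0 in all samples, and the sum was 35.8 to 41.9 TPM against 54.2 to 57.8 TPM. Most of this sum came from the aggrecan gene Acan, at 31.6 ± 2.95 and 47.1 ± 1.82 TPM without overlap (log2 fold change 0.57, SE 0.07, limma adjusted p = 8.7e-05). Of 11 pericyte and smooth muscle markers, 9 had a mean of at least 1 TPM, and their sum was 605 to 642 TPM under the Lv-Ctrl label and 1922 to 2017 TPM under the Lv-Piezo1 label, with Acta2 higher (log2 fold change 4.69, limma adjusted p = 5.7e-12) and Kcnj8 lower (-3.03, limma adjusted p = 2.4e-10). Without Acta2 the sums were 551 to 592 and 627 to 652 TPM. These sums include falling genes. Kcnj8 had 326 ± 5.61 and 39.1 ± 2.61 TPM, and Abcc9, of the same list, had 73.7 ± 10.1 and 12.3 ± 1.04 TPM. The remaining markers of the list together were therefore higher under the Lv-Piezo1 label, so Acta2 was not alone in its direction. Among 10 macrophage markers the sum was 21.3 to 23.3 against 37.3 to 41.9 TPM, with Adgre1, C1qa, C1qb and Cd163 listed at 0 in all samples. The lysosomal marker Cd68 rose from 0.955 ± 0.899 to 12.3 ± 0.901 TPM (log2 fold change 2.88, SE 0.28, limma adjusted p = 2.7e-05), and without it the sums were 21.0 to 21.8 and 24.8 to 29.1 TPM. Most of the sums without Cd68 came from Cd14, at 20.9 ± 0.324 and 25.8 ± 1.91 TPM (log2 fold change 0.29, SE 0.05, limma adjusted p = 0.0015). The 9 endothelial markers summed to 25.4 to 34.2 against 33.8 to 38.9 TPM, with Emcn listed at 0, and most of the sum came from Egfl7 (29.5 ± 3.76 and 30.7 ± 2.16 TPM). The junction gene Esam rose from 0.203 ± 0.114 to 5.68 ± 0.893 TPM (log2 fold change 2.47, SE 0.12, limma adjusted p = 4.0e-07). The part of these cell types in the ligand differences was not tested.

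The other genes of the pathway were then described from 7 lists, leaving out the 10 ligands. Some genes stand in more than 1 list. The lists were drawn up with earlier results of these data known. Their counts, shares and medians are therefore given as a description, and nothing is read from them about the pathway. Among 23 other ligands, 9 were tested, and 1 was called higher and 1 lower, which is 22.2% of those tested beside 7.67% of all tested genes. The median log2 fold change of the list was -0.01 beside 0.14 for all tested genes. Inhbb, which encodes the βB subunit of activin B, had 15.6, 15.7, 14.2 and 14.7 TPM in samples 1 to 4 labelled Lv-Ctrl and 1.42, 1.09, 1.00 and 1.01 TPM in samples 1 to 4 labelled Lv-Piezo1. It fell by 2.92 on the log2 scale (SE 0.08, limma adjusted p = 9.9e-09), without overlap. Both activin β subunit genes with a tested level were thus lower, and Inha, the α subunit gene, chosen after its value was seen, had 5.47 ± 0.840 and 5.68 ± 0.299 TPM (limma adjusted p = 0.66). Gdf1 rose from 4.46 ± 0.234 to 11.5 ± 0.542 TPM (log2 fold change 1.20, SE 0.06, limma adjusted p = 3.4e-07), but RefSeq places it over Cers1 and Upf1, so its reads may be shared and its value is uncertain. Cers1 was listed at 0 in all samples, so the value under Gdf1 may include reads of Cers1, which was not tested. Gdf15, a stress-induced ligand and the most abundant of the list, fell by 0.47 on the log2 scale from 1621 ± 66.6 to 1167 ± 30.2 TPM (SE 0.04, limma adjusted p = 5.4e-06), less than the limit for a call. RefSeq places it over Lrrc25, so that its reads may also be shared.

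Of 20 receptor and co-receptor genes 15 were tested, and 2 were called higher and 1 lower (3 of 15, beside 7.67% of all tested genes), with a median of -0.02. Eng, the TGF-β co-receptor endoglin, rose from 19.7 ± 2.11 to 48.1 ± 1.21 TPM (log2 fold change 1.25, SE 0.07, limma adjusted p = 6.9e-07). Bambi, a pseudoreceptor that dampens signalling, rose from 14.7 ± 0.882 to 31.1 ± 1.37 TPM (1.03, SE 0.05, limma adjusted p = 4.8e-07), a call lost with median-ratio scaling (0.86), with quantile normalization (0.88), without Lv-Ctrl sample 3 (0.99) and without Lv-Ctrl samples 2 and 3 together (0.98). Cd109, a TGF-β co-receptor that promotes receptor loss, fell from 28.3 ± 1.82 to 13.5 ± 1.39 TPM (-1.02, SE 0.08, limma adjusted p = 4.7e-06), and this call was lost without Lv-Ctrl sample 2, Lv-Piezo1 sample 1 or Lv-Piezo1 sample 2, the last at -0.97. Tgfbr2, the type II TGF-β receptor and the most abundant gene of the list, had 59.3 ± 5.16 and 58.5 ± 2.43 TPM (-0.02, SE 0.06, limma adjusted p = 0.86), a sign that turned without some samples. Chosen after their values were seen, some receptors used by myostatin and the activins are given as values. Acvr2a was lower (4.78 ± 0.440 and 3.38 ± 0.510 TPM) and Acvr1b higher (6.78 ± 0.605 and 11.7 ± 0.552 TPM), each without overlap. Acvr2b was below the test limit at 0.458 and 0.690 TPM. Of the other type I receptors listed, Tgfbr1 had 10.4 ± 1.58 and 9.70 ± 0.871 TPM with overlap, and Acvr1c was listed at 0 in all samples.

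None of the 18 tested genes among the SMADs and their regulators was called by limma, although 9 had an adjusted p below 0.05 with a smaller fold change and 9 an unadjusted p below 0.05. Their median was 0.12. The largest differences were those of Smurf1, a ubiquitin ligase for SMADs and receptors (15.7 ± 1.19 and 28.5 ± 1.26 TPM, log2 fold change 0.82, limma adjusted p = 4.2e-06), and the corepressor Tgif1 (58.6 ± 3.36 and 88.0 ± 4.10 TPM, 0.58, limma adjusted p = 1.3e-05). Smad7 and Smad6, the inhibitory SMADs and targets of the pathway, were chosen after their values were seen and had log2 fold changes of -0.36 and -0.43 (limma adjusted p = 5.5e-04 and 1.8e-05).

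Genes that mature or activate the ligands gave 12 tested of 15, with 1 called higher and 1 lower (16.7%, beside 7.67% of all tested genes) and a median of 0.04. Pcsk6, a furin-like convertase that cleaves superfamily precursors, rose from 3.82 ± 0.317 to 12.0 ± 0.618 TPM (log2 fold change 1.43, SE 0.07, limma adjusted p = 2.6e-07). Tll1, a tolloid protease of the family that cleaves the BMP antagonist chordin and releases latent myostatin, fell from 19.8 ± 2.06 to 8.32 ± 1.03 TPM (-1.16, SE 0.10, limma adjusted p = 9.6e-06). Furin itself, chosen after its value was seen, had 71.3 ± 4.96 and 69.9 ± 1.60 TPM with overlapping groups. Thbs1, an activator of latent TGF-β and the most abundant gene of the list, had 4279 ± 692 and 3729 ± 334 TPM, also overlapping (-0.19, limma adjusted p = 0.21).

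Among antagonists and latency proteins, 18 of 24 genes were tested, and 4 were called higher and 3 lower (38.9% of those tested beside 7.67% of all tested genes), with a median of 0.06. The latency gene Lrrc32 (GARP) rose from 3.41 ± 0.656 to 15.5 ± 0.498 TPM (log2 fold change 1.91, SE 0.10, limma adjusted p = 5.5e-07). Ltbp2, of the latent TGF-β binding protein family, rose from 233 ± 17.6 to 600.3 ± 24.1 TPM (1.36, SE 0.06, limma adjusted p = 1.0e-07). The other listed genes of that family, chosen after their values were seen, did not rise. Ltbp1 fell from 194 ± 14.7 to 129 ± 7.15 TPM (-0.58, SE 0.06, limma adjusted p = 4.2e-05), less than the limit for a call. Ltbp3 and Ltbp4 had overlapping groups (-0.03 and -0.01, limma adjusted p = 0.60 and 0.91). Bmper, an extracellular BMP modulator, rose from 3.92 ± 0.658 to 11.1 ± 0.378 TPM (1.30, SE 0.10, limma adjusted p = 4.7e-06). Fstl3, chosen after its value was seen, encodes a follistatin-like protein that binds activin and myostatin and rose from 47.7 ± 2.26 to 97.0 ± 0.930 TPM (1.01, SE 0.04, limma adjusted p = 7.0e-08). The 3 lower genes were abundant. Nbl1, a BMP antagonist of the DAN family, measured 4482, 4424, 4567 and 4300.0 TPM under the Lv-Ctrl label and 1315, 1325, 1299 and 1286 TPM under the Lv-Piezo1 label. It fell by 1.77 on the log2 scale (SE 0.03, limma adjusted p = 2.7e-10), with no overlap. Grem1, which binds and blocks BMP2 and BMP4, fell from 1742 ± 155 to 644 ± 44.3 TPM (-1.43, SE 0.07, limma adjusted p = 3.7e-07), and the proteoglycan decorin gene Dcn, whose product binds TGF-β, from 1456 ± 69.3 to 519 ± 14.9 TPM (-1.49, SE 0.04, limma adjusted p = 7.9e-09). Follistatin (Fst), chosen after its value was seen, had 2.40 ± 0.264 and 4.43 ± 0.299 TPM, a log2 fold change of 0.68 (limma adjusted p = 1.3e-04).

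Genes known as targets of the pathway were read last. Of 24 targets of TGF-β and activin, all tested, 7 were called higher and 1 lower (33.3% of the list beside 7.67% of all tested genes), and their median of 0.77 stood beside 0.14. Ccn2, which encodes connective tissue growth factor, rose from 1444 ± 87.2 to 4611 ± 95.2 TPM (log2 fold change 1.68, SE 0.04, limma adjusted p = 7.3e-09). Acta2, Tagln, Postn, Ltbp2 and Fn1 were also called higher, and Acta2 is at the same time a smooth muscle marker. Tgfbi, named for its induction by TGF-β, fell from 809 ± 21.1 to 297 ± 8.50 TPM (-1.45, SE 0.03, limma adjusted p = 2.3e-09). Among 13 tested of 17 BMP targets, 4 were called higher and 1 lower (38.5%, beside 7.67% of all tested genes), with a median of 0.44. The inhibitors of differentiation Id1, which overlaps a non-coding gene in RefSeq, and Id3 rose, Id1 from 22.3 ± 2.44 to 68.7 ± 4.29 TPM (1.58, SE 0.08, limma adjusted p = 3.4e-07) and Id3 from 219.5 ± 13.1 to 514 ± 5.01 TPM (1.23, SE 0.04, limma adjusted p = 2.9e-08), and Msx2, a homeobox gene, rose from 0.793 ± 0.102 to 5.69 ± 0.824 TPM (1.89, SE 0.11, limma adjusted p = 9.0e-07). Bambi was the other called higher and Grem1 the one called lower.

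**Figure D4:**
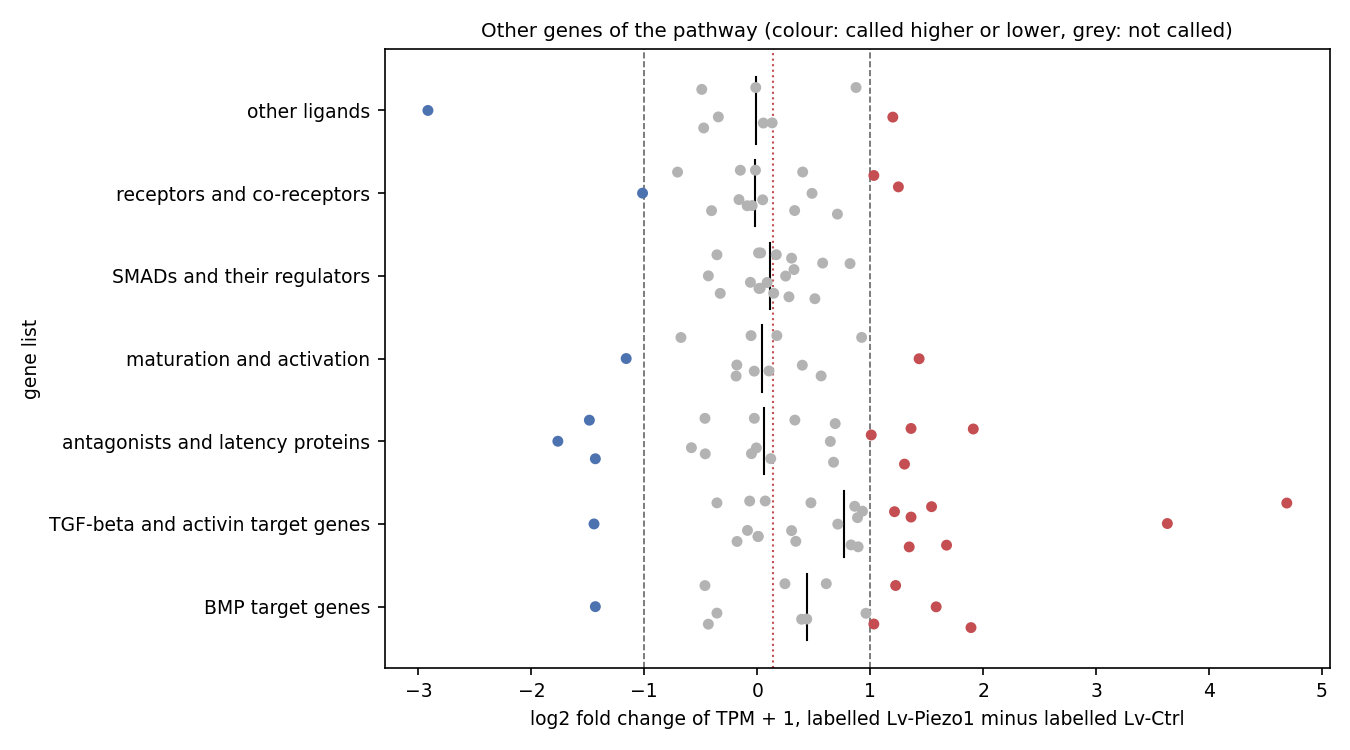
Log2 fold change of TPM + 1 (labelled Lv-Piezo1 minus labelled Lv-Ctrl) of each tested gene in the 7 pathway lists, without the 10 ligands. Red and blue points were called higher and lower, grey points were not called, black ticks are list medians, dashed lines the limits at -1 and 1, and the red dotted line the median of all tested genes. The medians of the first 5 lists lie between -0.02 and 0.12, and those of the TGF-β and activin targets and of the BMP targets at 0.77 and 0.44.

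The genes whose profile over the 8 samples lay nearest to that of Mstn were found among 9060 genes by the distance between log2 profiles, each centred on its own mean. They were Abcc9, a subunit of potassium channels (distance 0.326), Vps52, of a vesicle tethering complex (0.357), Cpxm2, a carboxypeptidase-like protein (0.363), Vegfd, a lymphatic growth factor (0.369), and Edn1, the endothelin-1 precursor (0.430). All 5 were lower in the samples labelled Lv-Piezo1, from 5.50-fold for Edn1 to 8.21-fold for Vegfd, and Pearson's r with Mstn was 0.995 to 0.996 over the 8 samples. These values mostly describe the shared difference between the groups, and the samples of a group share its vector.

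An upstream entry existed for 7 of the 10 ligands, those other than Mstn, Bmp2 and Gdf6, and 11 motifs were searched on both strands of the 250 bases. None of the 7 held TGACGTCA (cAMP response element), TGACTCA (AP-1), GGAATG (TEAD) or the CArG box, which stood in 1.59%, 4.05%, 12.1% and 1.5% of all promoters. CAGACA stood in Bmp4 and in 17.2% of all promoters, and CACGTG in Tgfb2 and Bmp4 and in 5.59%. GGGCGG was in Bmp4, Bmp6 and Gdf10 (30.5% of all), CCAAT in Inhba and Bmp6 (34.0%), GGCGCC in Gdf10 (8.69%) and TGACG, which is contained in the cAMP response element, in Tgfb1, Bmp6 and Gdf10 (18.2%). No motif of the 11 was held by Tgfb2, Tgfb3 and Bmp4 alike, and CCAAT was held by Inhba and Bmp6 alike, the lower ligands with an entry. The absence of a match says only that these letters are not in this window.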

How the data were processed

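RNA-seq was measured in 8 samples of rat AFCs, 4 labelled Lv-Ctrl and 4 labelled Lv-Piezo1, grouped by their titles. The authors deposited 1 table of TPM values per gene, normalized for transcript length and depth. Per the study's methods, reads were trimmed, mapped to the rat genome with HISAT2, assembled with StringTie and tested with DESeq, while the submitters' processing notes name DESeq2 and mm10, a mouse build. The rat build and the strand setting are not given in the sources used here, and no coordinate of the table was used. TPM values carry no read counts, so a count test was not run and depth is unknown. The study's 2 columns of group means were not used.

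Values were analysed as log2(TPM + 1) with limma 3.58.1 in R 4.3.3 (eBayes with a mean-variance trend, Benjamini-Hochberg adjustment) over the 13103 genes with a mean of at least 1 TPM. A call needed an adjusted p below 0.05 and a log2 fold change of at least 1 in size. The code was tested on simulated data. The ligands and the gene lists were chosen with earlier results of these data known. Genes were named by rule: per list, up to 3 called genes in each direction with the largest change (with none called, the 2 largest changes) and the most abundant gene, the 2 most abundant markers per cell type, Piezo1 and the 5 genes nearest to Mstn. Other genes are named as chosen after their values were seen, or are values of markers, Y-linked genes and members of a count. Same-numbered samples did not deviate together (correlations of -0.0576 to -0.0124 over 4 pairs), so the numbers were not taken as pairs. Alternatives changed the pseudocount, filter, scaling, moderation, fold limit and block, and left out samples. Upstream sequences are from RefSeq (GRCr8), matched by symbol. Tgfb2, Bmp4 and Id1 overlap a non-coding gene in RefSeq, Gdf15 overlaps Lrrc25 and Gdf1 overlaps Cers1 and Upf1, and without a stated strand setting reads of such pairs cannot be told apart. A gene of the target list that is counted but not named is not reported here.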

Additional observations from a re-analysis of the deposited data

Results flagged for a closer look

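Among 116 groups of 4 values, 7 held a sample far from the other 3, with a gap to the nearest of them, as a share of the group's range, above the critical value of Dixon's test, which chance passes in about 1 of 20 groups. Of the ligands, Gdf6 was marked under the Lv-Piezo1 label, where sample 2 was low at 1.73 TPM and the gap was 0.936 of the range. Among the other pathway genes, a low sample was marked under the Lv-Ctrl label for Gdf15 (0.834), Cd109 (0.936) and Dcn (0.896). Under the Lv-Piezo1 label it was marked for Acta2 (0.878) and Ccn2 (0.971). The summed skeletal muscle markers were marked for a high value in Lv-Ctrl sample 2, at 71.8 TPM with a gap of 0.912 of the range.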

How the results depend on the processing

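The TPM table gives no read depth, so the precision of low values such as those of Gdf6 and Gdf10 is unknown, and the direction of every result rests on labels that the Piezo1 transcript goes against. Over all tested genes, 1005 calls became 628 with a mean TPM of at least 5 and 7626 with no fold limit. The fit with the replicate block gave 1004 calls, and no call of a gene named here changed with it. The share of higher genes among the calls was 64.1%, and it was 51.4% with median-ratio scaling and 48.8% with quantile normalization. With no fold limit, calls were 6 for the other ligands, 9 for the receptors, 9 for the SMADs, 7 for maturation and activation, 14 for the antagonists, 20 for the TGF-β and activin targets and 12 for the BMP targets. After quantile normalization 1 of the other ligands was called, since Gdf1 had a log2 fold change just under 1. Differences near 0 changed sign, that of the endothelial marker Egfl7 to -0.11 with median-ratio scaling and -0.058 with quantile normalization, and that of the chondrocyte factor Sox9 to 0.024 without Lv-Ctrl samples 2 and 3 together, a setting chosen after seeing the data. Leaving out 1 sample at a time gave -0.072 to 0.022 for Tgfbr2, -0.070 to 0.032 for Sox9 and -0.016 to 0.13 for Egfl7. Of the ligands, Tgfb2 and Bmp2 crossed the limit of 1 in size under some settings and the others did not. The causes of these changes were not tested.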
